A study of Bos taurus with 21 samples.

Results

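Oxidative phosphorylation is carried out by enzyme complexes of the inner mitochondrial membrane. Complexes I (NADH dehydrogenase), II (succinate dehydrogenase), III (cytochrome *bc*1 complex) and IV (cytochrome *c* oxidase) pass electrons to oxygen, with cytochrome *c* as the carrier between complexes III and IV, and complex V (ATP synthase) uses the proton gradient to make ATP. In skeletal muscle, some subunits of complex IV come in a form found in heart and muscle and a form found in most tissues. The genes described here are those whose symbol starts with NDUF, SDH, UQCR, COX4 to COX8 or ATP5, together with *CYC1* and *CYCS*. This rule fitted 102 annotated cattle genes, of which 95 had a probe among the 12538 genes named on the array. *COX5A*, *COX7ALP1*, *COX7C*, *COX8C*, *NDUFAF8*, *NDUFS8* and *UQCRC2* were not analysed here.

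RNA of muscle from 21 foetuses was hybridized to single-colour arrays, 1 array per foetus. Blonde d'Aquitaine (BA) is a heavily muscled French beef breed in which a *MSTN* mutation occurs, and Charolais (CH) is the beef breed it was compared with. The BA groups held 3, 2, 3 and 2 foetuses and the CH groups 2, 3, 3 and 3, sampled at 110, 180, 210 and 260 days post conception (dpc), with no treatment named in the labels and from 2 sires in each breed. The groups held 8 males and 13 females, unequally spread. No *MSTN* genotype of a single foetus was used here, and the paper states that its BA foetuses were not genotyped. The labels name the muscle *Longissimus thoracis* and the methods name *Semitendinosus*, and these arrays cannot tell them apart. All 11 measured genes of a list of skeletal fibre genes were well above background on every array.

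Levels are log2 intensities scaled to the 75th percentile of each array, where 0 marks the middle probe of a usual array. The level of one probe cannot be set against that of another, so each gene is compared only with itself between samples. Of the 95 genes, each measured by its brightest probe, 90 passed the filter on low values and all 90 were well above background on every array. *COX4I2*, *COX7B2*, *NDUFAF1*, *NDUFAF4* and *NDUFAF7* did not pass it. Between 29027 and 34508 of 43653 probes were well above background on an array, and the small number of arrays limits the precision. A gene passed at an adjusted p under 0.05 in limma over 20132 probes. In whole muscle, fewer cells of a type and less RNA per cell cannot be told apart.

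Nearly all of these genes were higher late in gestation. Between 110 and 260 dpc, with the breeds averaged, 81 of the 90 genes rose, 3 fell and 6 did not pass. Over all tested probes, 33.3% were higher and 30.8% lower. The median change of the 90 genes was 1.11 on the log2 scale, against 0.04 for all tested probes, and 57 of the 81 rose by 2-fold or more. For 80 genes every array at 260 dpc lay above every array at 110 dpc, as did 25.4% of all tested probes. For 3 genes every array at 260 dpc lay below, as did 21.8% of all tested probes. The 3 genes that fell, *COX7A2*, *COX6A1* and *COX8A*, are all complex IV subunits of the form found in most tissues.

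**Figure D1:**
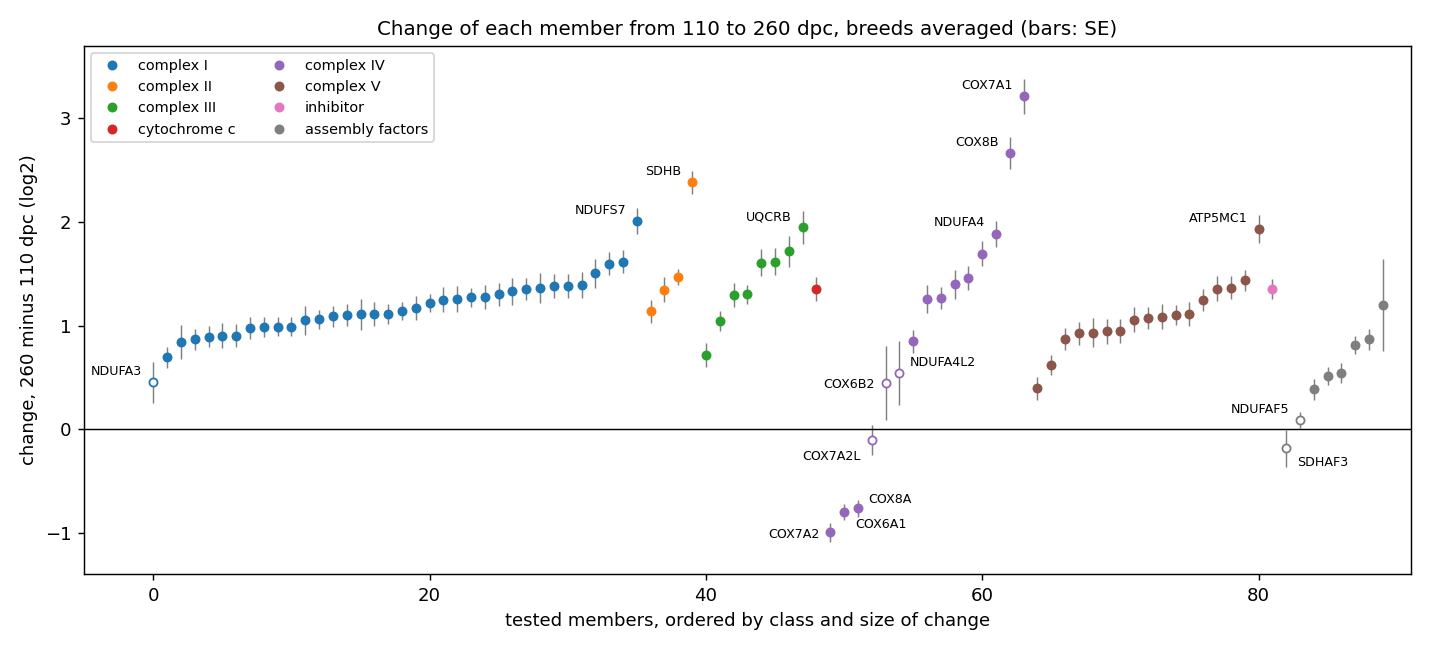
Change of each of the 90 tested genes from 110 to 260 dpc in log2, breeds averaged, ordered by complex and by size, with the limma SE as bars. Filled points passed at an adjusted p under 0.05 and open points did not, and the 3 filled points below 0 are *COX7A2*, *COX6A1* and *COX8A*.

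The rise was uneven in time. Between 110 and 180 dpc 19 genes rose and 2 fell, with 12.5% of all tested probes higher and 11.4% lower, and the median change of the 90 genes was 0.18. Between 180 and 210 dpc 9 rose and 1 fell, with 5.35% of all probes higher and 4.33% lower, and the median change was 0.21. Between 210 and 260 dpc 81 rose and 4 fell, with 24.8% of all probes higher and 19.9% lower, and the median change was 0.74. Of the 81 genes that rose over the whole period, 80 had their largest step between 210 and 260 dpc. This step held a median of 65.8% of their whole rise, against 16.4% and 18.3% for the steps before it. The steps differ in length, and the shares depend on the scaling. With quantile normalization the median changes of the 90 genes in the 3 steps were 0.151, 0.146 and 0.404. On values not scaled between arrays they were 0.199, 0.205 and 0.331. The count of 21 for 110 to 180 dpc ran from 11 to 31 with 1 array left out, 11 of them without CH replicate 1 at 110 dpc, and was 6 on values not scaled between arrays. The count for 180 to 210 dpc ran from 3 to 24 with 1 array left out, 24 of them without CH replicate 1 at 260 dpc. On values not scaled between arrays the last step gave 22 genes higher and 4 lower. On those values the median of all tested probes itself moved by −0.386 in that step.

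The catalytic and redox subunits of complex I followed this course. Complex I takes electrons from NADH, and 35 of its 36 measured genes rose, with a median of 1.13. *NDUFS7*, which carries an iron-sulphur cluster next to the ubiquinone site, rose most. It went from between 5.33 and 5.76 in BA and between 5.91 and 5.95 in CH at 110 dpc to 7.63 and 7.78 in BA and between 7.52 and 8.02 in CH at 260 dpc. Its change was 2.01 (SE 0.12, limma adjusted p = 3.6e-10), and 0.79 of it lay between 110 and 180 dpc. Of the flavoprotein subunits that receive the electrons, *NDUFV1* rose by 1.33 and *NDUFV2* by 1.60. The iron-sulphur subunit *NDUFS1* rose by 1.30. The accessory subunit *NDUFB6* rose by 1.62 and passed in each of the 3 steps. The accessory subunit *NDUFA3* was the complex I gene that did not pass, with a change of 0.45 (SE 0.20, limma adjusted p = 0.055). One CH array at 110 dpc (replicate 2) stood apart at 8.46, while the other 4 lay between 6.89 and 7.38, and without it the change was 0.76 (limma adjusted p = 0.0010). Its other tested probes rose by 0.88 and 0.93.

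Complex II oxidizes succinate in the citric acid cycle, and all 4 of its subunits are encoded in the nucleus. All 4 rose, with a median of 1.41. *SDHB*, the iron-sulphur subunit, was at 3.87, 4.09 and 3.91 in BA and at 4.42 and 4.36 in CH at 110 dpc. At 260 dpc it was at 6.35 and 6.48 in BA and at 6.50, 6.65 and 6.93 in CH. The stages lay far apart in both breeds, and the change was 2.38 (SE 0.11, 5.21-fold, limma adjusted p = 1.8e-11). *SDHB* passed in every step, with 0.74, 0.49 and 1.15. The flavoprotein *SDHA* rose by 1.35 and passed only in the last step, where it rose by 0.93. The membrane anchors *SDHC* and *SDHD* rose by 1.14 and 1.47.

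Complex III passes electrons from ubiquinol to cytochrome *c*. All 8 of its measured genes rose, with a median of 1.46. The small subunits *UQCRB* and *UQCRQ* rose most, by 1.95 and 1.72. *UQCRQ* differed most between its own probes among the 52 genes with over 1 tested probe, since its other probe rose by 1.01. The electron carriers *CYC1* (cytochrome *c*1) and *UQCRFS1* (the Rieske iron-sulphur protein) rose by 1.30 and 1.29, and the core protein *UQCRC1* by 1.04. *UQCRH*, the hinge protein, rose least, by 0.72. *CYCS*, which encodes cytochrome *c* itself, rose by 1.35 (SE 0.11, limma adjusted p = 1.4e-08).

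**Figure D2:**
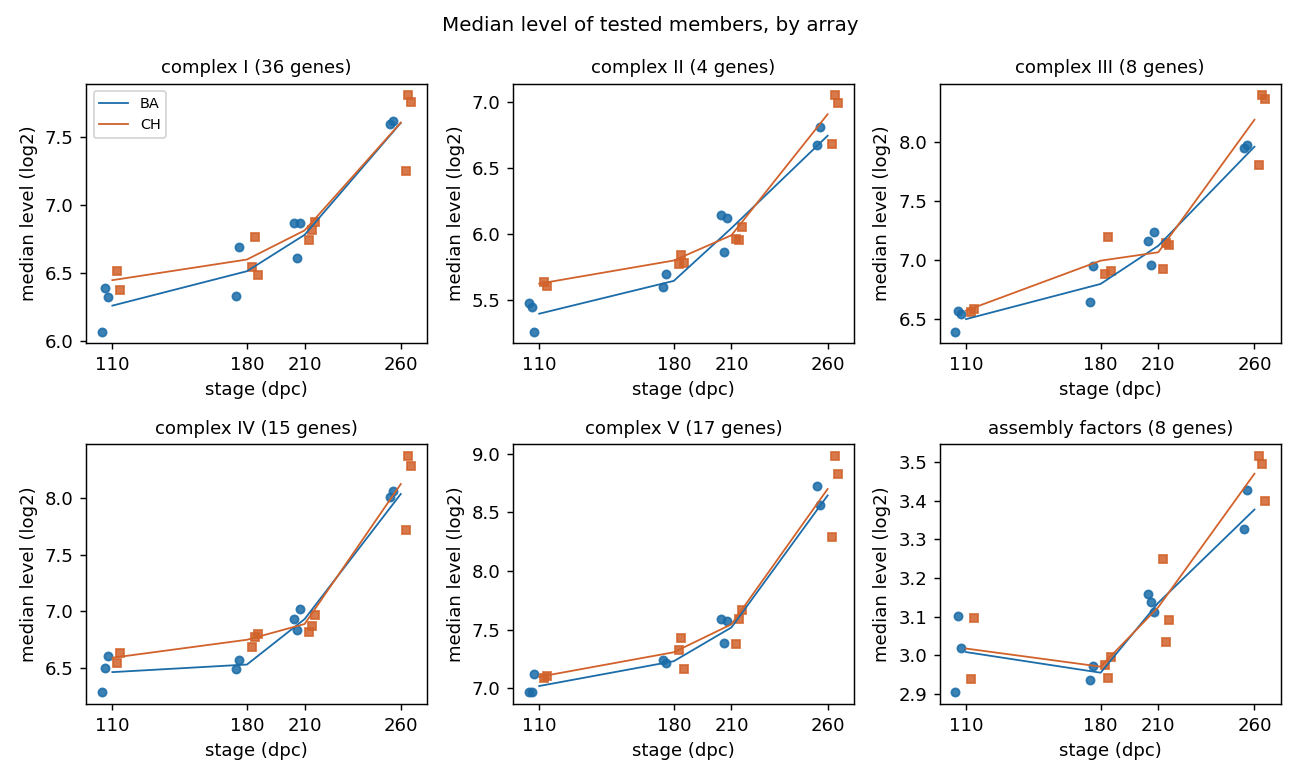
Median level in log2 of the tested genes of each complex, and of the assembly factors, on each array against stage in dpc, with BA as circles, CH as squares and lines through the group means. For the 5 complexes the steepest part of each line lies between 210 and 260 dpc, and 1 CH array at 260 dpc lies under the other 2.

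Complex V makes ATP, and all 17 of its genes rose, with a median of 1.07. The catalytic subunits *ATP5F1A* and *ATP5F1B* rose by 1.10 and 1.09, and the central stalk subunits *ATP5F1C* and *ATP5F1D* by 1.25 and 1.44. *ATP5IF1*, the inhibitor that holds back ATP hydrolysis by the enzyme, rose by 1.35. The 5 tested probes of *ATP5F1B* gave rises from 1.09 to 1.56.

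The ring subunit c of ATP synthase is encoded by 3 genes whose mature protein is the same, and their probes changed by different amounts. *ATP5MC1* was at 6.51, 6.70 and 6.76 in BA and at 6.87 and 6.85 in CH at 110 dpc, and at 8.78 and 8.57 in BA and at 8.34, 8.98 and 8.82 in CH at 260 dpc. Its change was 1.94 (SE 0.13, 3.82-fold, limma adjusted p = 1.4e-09). *ATP5MC3* rose by 0.95 and *ATP5MC2* by 0.39 (SE 0.11, limma adjusted p = 0.0048). Other tested probes of *ATP5MC2* changed by 0.42 (limma adjusted p = 0.0054) and by 0.38 (limma adjusted p = 0.16), and the last did not pass. The stages overlapped for *ATP5MC2*, which lay between 8.79 and 9.29 in both breeds at 110 dpc and between 9.27 and 9.71 at 260 dpc. With quantile normalization its change was −0.14 and with values not scaled between arrays 0.0037, and neither passed. The differences among the 3 changes were not tested.

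**Figure D3:**
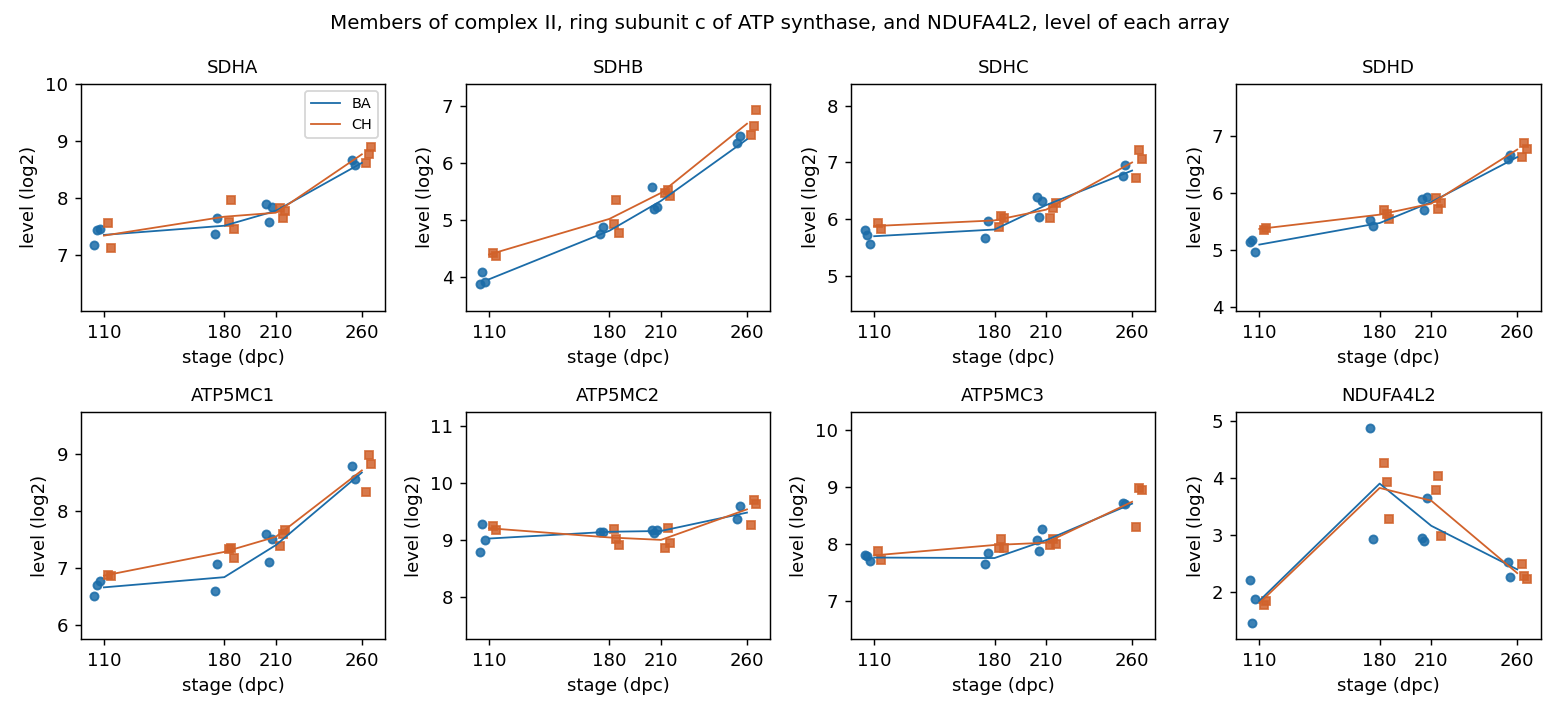
Level in log2 of each array against stage in dpc for the 4 complex II genes, the 3 genes of ring subunit c and *NDUFA4L2*, with BA as circles, CH as squares, lines through the group means and the same span of 4 log2 units in every panel. *SDHB* and *ATP5MC1* climb by 2.38 and 1.94 while *ATP5MC2* climbs by 0.39, and *NDUFA4L2* is higher at 180 than at 110 dpc and lower at 260 than at 210 dpc.

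Complex IV reduces oxygen to water, and it was the complex in which genes moved both ways. Of its 17 genes with a probe 15 were tested, and 9 rose, 3 fell and 3 did not pass. The 3 genes that fell and 3 of those that rose are the paired isoforms of subunits 6A, 7A and 8. *COX7A1*, the heart and muscle form of subunit 7A, was at 5.75, 5.85 and 6.66 in BA and at 5.97 and 5.93 in CH at 110 dpc. At 260 dpc it was at 9.22 and 9.10 in BA and at 8.82, 9.64 and 9.45 in CH. It rose by 3.21 (SE 0.17, 9.28-fold, limma adjusted p = 5.1e-11), the largest rise of the 90 genes, and passed in every step.

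*COX7A2*, the form of subunit 7A found in most tissues, was at 6.22, 6.15 and 6.16 in BA and at 5.96 and 6.06 in CH at 110 dpc. At 260 dpc it was at 5.20 and 5.17 in BA and at 4.78, 5.23 and 5.02 in CH. It fell by 1.00 (SE 0.10, limma adjusted p = 8.6e-08), the opposite direction to *COX7A1*.

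*COX8B*, the heart and muscle form of subunit 8, was at 5.85, 6.51 and 6.51 in BA and at 6.21 and 6.46 in CH at 110 dpc. At 260 dpc it was at 8.97 and 8.94 in BA and at 8.52, 9.24 and 9.23 in CH, a rise of 2.67 (SE 0.15, 6.35-fold, limma adjusted p = 1.5e-10). Its counterpart *COX8A* lay between 6.29 and 6.79 at 110 dpc and between 5.75 and 5.96 at 260 dpc. It fell by 0.76 (SE 0.08, limma adjusted p = 3.9e-07).

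*COX6A2*, the heart and muscle form of subunit 6A, lay between 7.51 and 8.0 at 110 dpc and between 8.99 and 9.53 at 260 dpc. It rose by 1.46 (SE 0.11, limma adjusted p = 6.5e-09). *COX6A1* lay between 5.60 and 5.76 at 110 dpc and between 4.59 and 5.04 at 260 dpc, and it fell by 0.80 (SE 0.08, limma adjusted p = 1.1e-07).

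**Figure D4:**
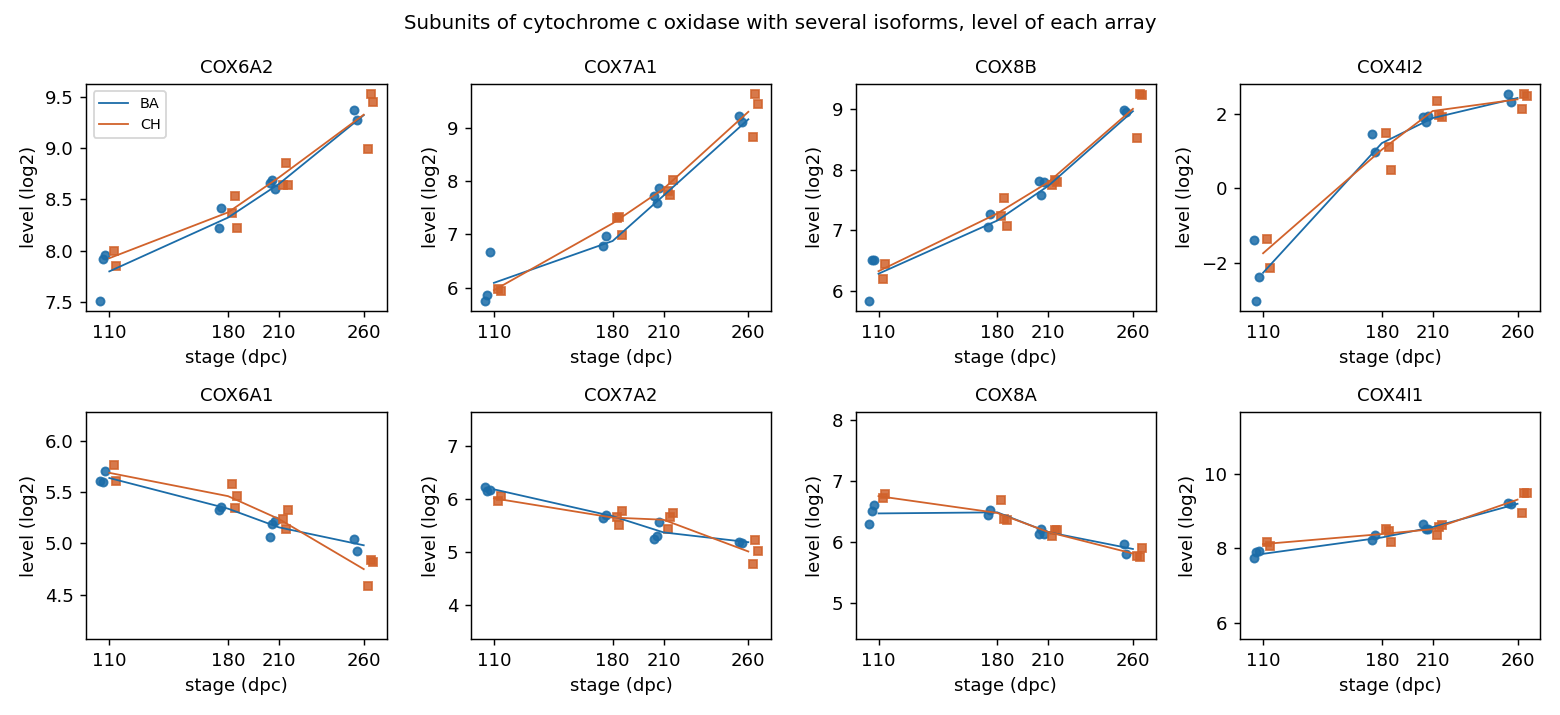
Level in log2 of each array against stage in dpc for 4 pairs of complex IV isoforms, the muscle forms or *COX4I2* above and the other form below, with BA as circles, CH as squares and lines through the group means. Both panels of a pair span the same number of log2 units. The muscle forms climb and *COX6A1*, *COX7A2* and *COX8A* fall, whereas *COX4I1* and the dim *COX4I2* both climb.

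The difference between the forms of a pair was taken on each array, and its change between stages was tested. For *COX7A1* minus *COX7A2* it lay between −0.47 and 0.50 at 110 dpc, between 1.13 and 1.81 at 180 dpc, between 2.08 and 2.49 at 210 dpc and between 3.93 and 4.43 at 260 dpc. The stages did not overlap at any step. Its change from 110 to 260 dpc was 4.21, or 18.5-fold (within-group SD 0.26). For *COX8B* minus *COX8A* the change was 3.43, or 10.8-fold (within-group SD 0.23), and for *COX6A2* minus *COX6A1* it was 2.26, or 4.78-fold (within-group SD 0.17). In these pairs too, no array of one stage reached the range of the next. In a two-sided exact permutation test of the stages within breeds each change gave p = 0.01, the smallest that the 100 permutations allow, and 0.01 after adjustment over the 4 pairs tested. Other tested probes of these genes gave changes between 4.18 and 4.32 for subunit 7A, of 3.56 for subunit 8 and of 1.97 for subunit 6A.

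*COX4I2*, a form of subunit 4 best known from lung and from low oxygen, did not change in the opposite direction to its counterpart. It was under the filter because both groups at 110 dpc lay below the median probe, at −1.39, −3.01 and −2.38 in BA, where 2 of the 3 arrays were well above background, and at −1.34 and −2.13 in CH. At 260 dpc it lay between 2.14 and 2.52 in both breeds. Fitted without the filter, an alternative chosen after the data were seen, its difference was 4.40 (SE 0.27, limma adjusted p = 3.1e-09). The size is uncertain, since 1 of the BA values at 110 dpc is at background. *COX4I1*, the form of most tissues, rose by 1.27. The change of *COX4I2* minus *COX4I1* was 3.13 (exact permutation p = 0.01), but its range of −6.74 to −6.02 at 210 dpc overlapped that of −7.00 to −6.69 at 260 dpc.

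Other isoforms of complex IV gave varied courses. *NDUFA4*, a complex IV subunit despite its name, rose by 1.89 (SE 0.13, limma adjusted p = 8.9e-10), 0.80 of it between 110 and 180 dpc. Its paralogue *NDUFA4L2*, known as a gene induced by low oxygen, was higher in mid gestation than at 110 dpc. It was at 2.20, 1.45 and 1.87 in BA and at 1.76 and 1.84 in CH at 110 dpc, and at 4.87 and 2.93 in BA and at 4.27, 3.94 and 3.27 in CH at 180 dpc. All 5 arrays at 180 dpc lay above all 5 at 110 dpc. It rose by 2.04 (SE 0.31, limma adjusted p = 1.3e-04) and, between 210 and 260 dpc, fell by 1.02 (limma adjusted p = 0.0093). The step between 180 and 210 dpc did not pass (−0.48, limma adjusted p = 0.33). It was 0.0029 without BA replicate 1 at 180 dpc, and −0.97 without BA replicate 2, where it passed (limma adjusted p = 0.033). With 1 array left out, a check of single steps added after the data were seen, the first step ran from 1.56 to 2.53 and passed each time. The difference between 110 and 260 dpc, 0.54, did not pass.

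*COX6B1* and *COX7B*, forms of subunits 6B and 7B found in most tissues, rose by 1.26 and 1.69. *COX6B2*, known as the testis form of 6B, had a change of 0.45 that did not pass (SE 0.36). One CH array at 110 dpc stood apart for it at 7.06, while the other 4 arrays at that stage lay between 4.37 and 4.99. Without it (CH replicate 2) the change was 0.97, while without CH replicate 1 at 110 dpc or with slide as a block its sign turned. Arrays were also scattered at 210 dpc, between 4.41 and 6.40 in CH. *COX7B2* was well above background on 1 array. *COX7A2L*, which helps join complexes into supercomplexes, lay between 4.73 and 5.28 at 110 dpc and between 4.53 and 5.24 at 260 dpc, and did not pass (−0.10, SE 0.14).

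Assembly factors help to build complexes I and II without being part of them. Of the 11 with a symbol that fits the rule, 8 were tested and 6 rose between 110 and 260 dpc, with a median of 0.53. Over all tested probes 33.3% were higher and 30.8% lower. *NDUFAF5* and *SDHAF3*, named after their values were seen, did not pass. *NDUFAF6*, also named after its values were seen, rose by 0.54, but its other tested probe did not pass (0.12, limma adjusted p = 0.32). The largest rises were those of *SDHAF4*, by 1.20 (SE 0.45, limma adjusted p = 0.026), and *NDUFAF2*, by 0.87 (SE 0.10). *SDHAF4* was scattered, with levels of 0.04 to 1.68 on the 110 dpc arrays and 1.34 to 2.90 on the 260 dpc arrays. Without 1 of BA replicate 2 at 260 dpc, CH replicate 2 at 110 dpc or CH replicate 3 at 260 dpc it did not pass, at 0.84, 1.04 and 0.99. Of 43 further assembly genes for the complexes, 28 were tested, and 21 rose and 2 fell, with a median of 0.54. The 2 that fell, *ACAD9* and *TMEM186*, named after their values were seen, both serve complex I.

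The genes that supply the chain were described by 2 lists. Between 110 and 260 dpc 33.3% of all tested probes were higher and 30.8% lower. Of the 10 tested genes of ubiquinone synthesis and handling, 7 rose and 1 fell, with a median of 0.87. *COQ8A*, a kinase-like protein needed for ubiquinone synthesis, rose by 4.73, and *COQ10A*, a ubiquinone-binding protein, by 2.22, whereas its paralogue *COQ10B* fell by 0.40 (limma adjusted p = 0.012). *PDSS1* (−0.16) and *COQ2* (0.09), enzymes of the same synthesis, did not pass. Of the 6 genes that feed electrons to ubiquinone by other routes 5 rose, among them *ETFDH*, which takes electrons from fatty acid oxidation, by 2.28, and *GPD2* of the glycerol phosphate shuttle by 1.80, and *DHODH* of pyrimidine synthesis did not pass (0.09). These genes were picked for mention after their values were seen. None of the 13 protein genes of mitochondrial DNA was measured here.

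Marker genes of fibres and of other cells were set beside these changes between 110 and 260 dpc, over which 33.3% of all tested probes rose and 30.8% fell. Of 11 measured skeletal fibre genes 9 rose and 1, the embryonic myosin *MYH3*, fell, and their summed level on the linear scale went from between 6080 and 7831 to between 17580 and 20660. All 6 measured fast fibre genes and 5 of 6 slow fibre genes rose. Of 6 fibroblast genes 5 fell, and the summed level went from between 1861 and 3671 to between 1169 and 1918. The 3 tested of 6 red cell genes fell, from a sum over all 6 of between 825 and 1431 to between 193 and 464. Of the 5 endothelial genes 3 rose and 1 fell, of the 3 tested leukocyte genes 1 rose and 1 fell, and of the 3 tested nerve and Schwann cell genes 2 rose. The 3 proliferation genes with a probe were under the filter, with sums of between 7.90 and 10.2 at 110 dpc and between 0.833 and 1.64 at 260 dpc. Of the adipocyte genes *FABP4* alone was tested and did not pass, and of the brown adipocyte genes *CIDEA* fell and *UCP1* was well above background on no array. The part of these shifts in the results above was not tested.

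Counts of changed genes were close between the breeds. In BA 82 of the 90 genes rose and 3 fell between 110 and 260 dpc. Of all 20132 tested probes 5556 rose and 4989 fell in BA, 52.4% in either direction. In CH 80 of the 90 genes rose and 3 fell. Of all tested probes 5533 rose and 4976 fell in CH, 52.2% in either direction. The median change was 1.19 in BA and 1.09 in CH. In BA and CH *COX7A1* rose by 3.07 and 3.35, *COX8B* by 2.67 in both, and *SDHB* by 2.46 and 2.30. No gene had a change that differed between the breeds (0% of all tested probes did), and 3 of the 90 genes had an unadjusted limma p under 0.05 for that difference, as did 7.09% of all tested probes.

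No gene differed between the breeds at any stage or on average over the stages after adjustment in limma. The share of all tested probes called was 0.358% on average, 0.273% at 110 dpc, 0.00993% at 180 dpc and 0% at 210 and at 260 dpc. Unadjusted p under 0.05 were found for 6 of the 90 genes on average and for 6, 4, 1 and 0 at the successive stages, while 12.5% of all tested probes had one on average and 13.8%, 6.17%, 5.24% and 5.34% by stage. Averaged over the stages, 11 of the 90 genes were on the higher side in BA, against 9000 of the 20132 tested probes. By stage, 19, 19, 55 and 28 of the 90 were at 110, 180, 210 and 260 dpc. Of all tested probes, 8603, 9951, 10168 and 9580 were. The median average difference of the 90 genes was −0.06, against −0.01 over all tested probes. It was −0.10 without CH replicate 1 at 260 dpc and with median scaling, −0.020 with quantile normalization and −0.0088 on values not scaled between arrays, where that of all tested probes was 0.04. *SDHB*, with the lowest adjusted p of the 90 genes on average, was lower in BA by 0.26 (SE 0.08, limma adjusted p = 0.16) and did not pass. *SDHAF4* had the largest average difference, 0.87 higher in BA (SE 0.31, limma adjusted p = 0.24). For this gene CH replicate 3 at 210 dpc was at −1.74, while CH replicates 1 and 2 were at 0.69 and 1.11. With a median SE of 0.08 for the average and of 0.16 at 260 dpc, small differences between the breeds could not be detected.

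At 260 dpc the direction of the median breed difference depended on which arrays were compared. The arrays were scanned on 3 days, and the median of the 90 genes was 0.29 higher in BA on the first day (1 array of each breed) and lower by 0.24 on the second (1 BA and 2 CH arrays), against −0.04 in all. That value was −0.21 without CH replicate 1, 0.042 without CH replicate 2 and 0.024 without CH replicate 3 at 260 dpc. With female foetuses only it was −0.19, where CH replicate 3 was the only CH array left at 260 dpc. CH replicate 1, the CH array of the first day, had a median level of 7.36 over the 90 genes, while the other CH arrays were at 7.91 and 7.83. The BA array of the first day was at 7.64 and that of the second at 7.62. The cause of the low CH value was not tested. The change between 110 and 260 dpc kept its direction within days. Its median was 0.75 in CH on the first day, from 1 array of each stage, with the low CH replicate 1 at 260 dpc. On the second day it was 1.19 in BA (1 array at 260 and 2 at 110 dpc). In CH it was 1.23 on that day (2 arrays at 260 and 1 at 110 dpc). On the 1 slide that held both stages, the median was 1.47 between a CH array at 260 dpc and a BA array at 110 dpc, which differ in breed as well. From the same few arrays, the change of *COX7A1* minus *COX7A2* was 4.18 in CH on the first day. On the second it was 4.41 in BA and 4.40 in CH.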

How the data were processed

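The authors extracted spot intensities from the scanned single-colour arrays with Agilent Feature Extraction 10.7, and these deposited intensity values carry no scaling from array to array. The authors' deposited value table holds the log2 of the same values. Control and outlier spots were left out, spots of a probe were averaged in log2, and each array's 75th percentile was subtracted, with a constant of 2.69 added. This percentile lay between 525 and 1174 intensity units. Probes were named through their RefSeq transcripts (26628 of 43653), and each gene was measured by its brightest probe. The array was designed on another assembly than the annotation, so no position is given. Probes entered the test with a mean over 0 in 7 or more of 8 groups. All 8 groups entered 1 fit in limma 3.58.1 (R 4.3.3), with 13 residual degrees of freedom and no covariates, and p-values were adjusted by Benjamini-Hochberg over the 20132 tested probes. The code was tested on simulated data. Isoform pairs were compared by two-sided exact permutation of the stages within breeds.

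The genes and lists were chosen with earlier results of these data known. Named genes are those with isoforms, those with catalytic or redox roles, the 2 largest rises and falls of each class, any with a breed difference, and the 3 whose own probes differed most. *NDUFA4* and *NDUFA4L2* were counted in complex IV. The values of 1 gene under this rule are not reported here. Alternatives were normexp background correction (offset 50), quantile and median scaling, the authors' value table with and without scaling, 2 other filters, the mean of a gene's probes, sex, slide, scan day, sire or replicate number in the model, female foetuses or 1 scan day alone, another variance model, other probes and each array left out.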

Additional observations from a re-analysis of the deposited data

How the results depend on the processing

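The number of genes that changed between 180 and 210 dpc was 10. It became 17 with normexp background correction, 16 with the mean of a gene's probes, 5 with median scaling, 3 with no filter, 1 with female foetuses only, with slide and with sire as a block, and 0 with the authors' unscaled table and within scan day 2. With 1 array left out it ran from 3 to 24. It was 3 without BA replicate 1 at 180 dpc, 4 without BA replicate 1 or 3 at 210 dpc, 5 without CH replicate 1 or 3 at 180 dpc or CH replicate 3 at 210 dpc, and 24 without CH replicate 1 at 260 dpc. Between 110 and 180 dpc the number was 21, but 12 within scan day 2 and 6 with the unscaled table, and it ran from 11 to 31 with 1 array left out, with 12 without BA replicate 2 at 180 dpc and 11 without CH replicate 1 at 110 dpc. The unscaled table also lowered the numbers for 210 to 260 dpc (from 85 to 26, of which 22 were higher), for 110 to 260 dpc in BA (56) and in CH (49), and in it the median of all tested probes moved by −0.36 between 110 and 260 dpc. The median changes of complexes I to V were 0.74, 1.02, 1.07, 0.87 and 0.68 with that table and 0.79, 0.99, 0.95, 0.67 and 0.57 with quantile normalization. The number of genes changed between 110 and 260 dpc, breeds averaged, was between 83 and 85 with 1 array left out. The isoform pairs kept their direction in every setting run. With female foetuses only, the changes were 2.20 for subunit 6A, 4.39 for subunit 7A, 3.41 for subunit 8 and 3.49 for subunit 4, each with an exact permutation p of 0.11, the smallest that those 9 permutations allow. Signs turned for genes that did not pass in that setting: with quantile normalization *ATP5MC2* was at −0.14 and *NDUFA3* at −0.10, with slide as a block *COX6B2* was at −0.15, and with 1 array left out *COX6B2* ran from −0.067 (without CH replicate 1 at 110 dpc) to 0.97 and *COX7A2L* from −0.18 to 0.0099 (without CH replicate 1 at 260 dpc). *NDUFA3* passed with the mean of its probes, at 0.75. No breed difference of a gene passed in any setting. The causes were not tested.

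The replicate number is only a name. After removal of group means, arrays of the same number had a median correlation of 0.03 over 66 pairs, and those of other numbers −0.0031 over 126. With replicate number as a block 85 genes changed between 110 and 260 dpc and 7 between 180 and 210 dpc. Within scan day 1 no test was possible, since it holds 1 array of each group compared. The promoter search was not run.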
